A study of Mus musculus with 2 samples.

Results

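The genes described here are the Wnt ligands, the Frizzled receptors they bind, the secreted Frizzled-related proteins (Sfrp) and the R-spondins (Rspo) of the mouse. They were chosen by a rule on gene symbols that uses no measured value, but with earlier results of these data known. The rule took 37 of the 34745 genes in the count table: 19 Wnt, 10 Fzd, 4 Sfrp and 4 Rspo genes. RNA sequencing was done on total RNA of gastrocnemius, a calf muscle, from C57BL/6 mice that were 8 weeks old. The series holds 2 libraries, 1 with the genotype CIPC-flox/flox, in which loxP sites flank Cipc, called flox below, and 1 labelled CIPC-scko, called scKO. Cipc encodes a repressor of CLOCK and BMAL1, the activating transcription factors of the circadian clock. The series title speaks of a deletion restricted to satellite cells, which are the muscle's stem cells, and scKO was read in that sense. The driver of the Cre recombinase and any pooling of animals are not stated in those labels. The title also names mdx mice, which lack dystrophin, whereas the labels of both libraries name the strain and the Cipc genotype only, so whether the muscles were dystrophic was not settled.

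Wnt proteins are secreted, lipid-modified glycoproteins that bind Frizzled receptors together with a coreceptor. In the canonical branch the coreceptors LRP5 and LRP6 lead to stabilisation of β-catenin and to transcription through TCF and LEF factors, and in the other branches Frizzled signals run through planar cell polarity and calcium. Secreted Frizzled-related proteins bind Wnts and dampen the signal, whereas R-spondins strengthen it by removing the ubiquitin ligases ZNRF3 and RNF43, which clear Frizzled from the cell surface. In skeletal muscle Wnt7a and its receptor Fzd7 are known for driving the symmetric expansion of satellite cells, and canonical signals are known for acting on myogenic commitment and fibrosis after injury.

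With 1 library in each group there was no replicate, and no test across animals could be made. The values are therefore the counts of each library, the deposited FPKM (fragments per kilobase of gene length, scaled to the size of the library) and the log2 ratio, scKO over flox. Each ratio carries a 95% interval that covers counting error only, and p-values are absent for that reason. A gene was tested where its counts summed to at least 20 over both libraries. A gene is said below to be higher or lower in scKO when the interval of its log2 ratio excludes 0, and at least 2-fold changed when the ratio of scaled counts also reached 2 or 0.5. Folds are these ratios of scaled counts, whereas log2 ratios have a prior count of 0.5 added and so lie slightly nearer to 0. Such wording compares the 2 libraries, not the genotypes.

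The flox library held 14727219 counts in all and the scKO library 13842100, and 12662 genes were tested. Cipc itself had 658 counts in flox and 111 in scKO, a 5.72-fold lower value with a log2 ratio of -2.51 (-2.82 to -2.22), in the direction of its label. RNA of whole muscle does not show in which cells Cipc was lower, so a restriction to satellite cells was not tested. All 12 fibre markers, such as Ckm and Acta1, were abundant, with summed levels of 58813 FPKM in flox and 56292 FPKM in scKO, which fits the labelled muscle. By counting error 11 of the 12 were lower in scKO and 1, Myh1, was higher, with a median log2 ratio of -0.08. Over all tested genes 12.3% were lower and 12.8% were higher. At such counts the intervals were narrow, and those of Tnni2, Myh2 and Mylpf ended less than 0.038 below 0. Scaling by total counts moves all log2 ratios up by 0.038, so these calls depend on the scaling. No marker in the 8 lists of cell types was at 0 in both libraries. Whole muscle also holds other cells, and in such bulk RNA fewer cells of a type and less RNA per cell cannot be told apart. Of the 12 fibro-adipogenic and fibroblast markers 7 were lower in scKO and none was higher, and their summed level was 303 FPKM in flox and 277 FPKM in scKO. Of the 9 endothelial markers 3 were higher and none was lower, with summed levels of 42.4 and 48.4 FPKM. Of the 10 satellite cell markers only Pax7 was lower, at 69 and 39 counts, and none was higher, with summed levels of 37.6 and 39.5 FPKM. Of these sums Itga7 gave 15.7 and 16.2 FPKM and Pax7 0.732 and 0.440, so the sums hardly depend on Pax7. Of the other markers tested, 2 of 9 for smooth muscle and pericytes were higher and 1 was lower, 2 of 7 for Schwann cells were lower, and 1 of 9 for macrophages was higher and 1 was lower. The tendon list had 4 of 8 markers tested, with 1 higher, and Mkx was at 4 counts in flox and 0 in scKO. The part of these cell types in the ratios below was not tested.

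Of the 37 genes 18 were tested, 9 had between 1 and 19 counts in all, and 10 had no count in either library. Among the 18 tested genes, 2 were higher in scKO (Fzd1 and Fzd9) and 3 were lower (Fzd4, Wnt9a and Wnt5b), while the intervals of the other 13 held 0. That is 11.1% higher and 16.7% lower, against 12.8% higher and 12.3% lower over all tested genes, so the shares were near the background. No tested gene was at least 2-fold higher, where 1.49% of all tested genes were, and 1 was at least 2-fold lower (Wnt5b), where 1.91% were. The median log2 ratio of the 18 genes was 0.036, beside 0.0021 for all tested genes, and their ratios ran from -1.02 to 0.95.

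**Figure D1:**
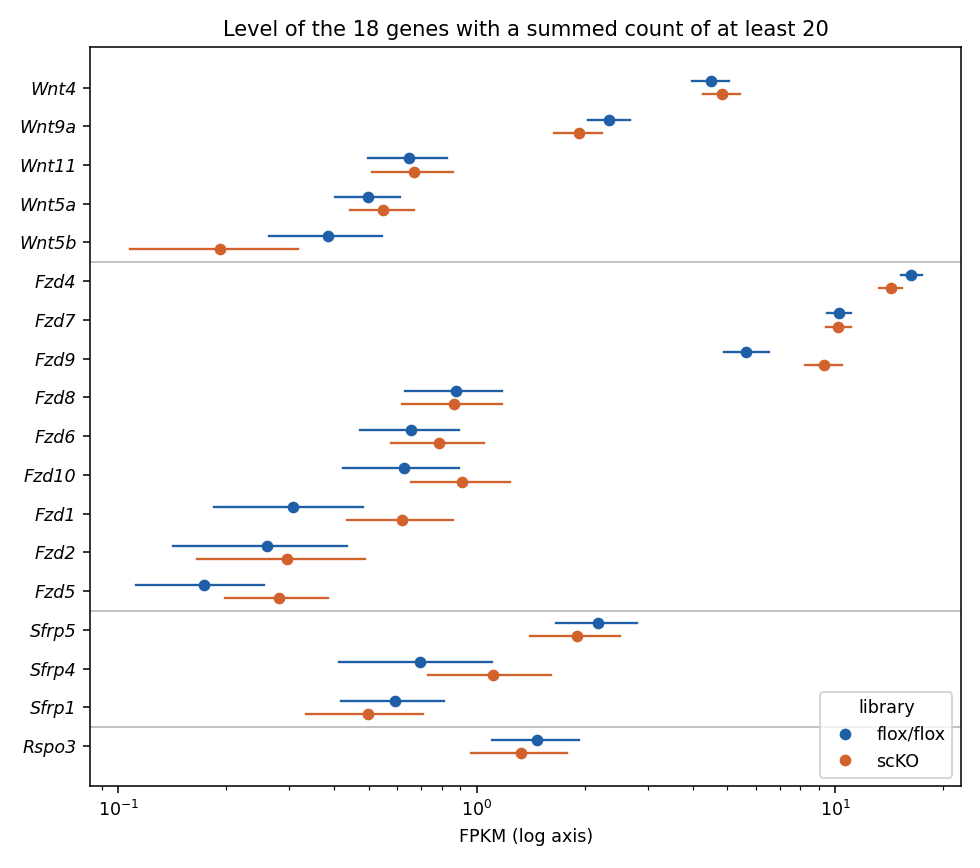
Level of each tested Wnt, Fzd, Sfrp and Rspo gene in FPKM on a log axis, with 1 point per library (blue flox/flox, orange scKO) and bars for the 95% counting interval. Fzd4, Fzd7 and Fzd9 lie highest in both libraries, and the bars of Fzd9, at 5.66 and 9.29 FPKM, do not meet.

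The promoters of these genes were searched for 2 motifs because Cipc acts on CLOCK and BMAL1, which bind the E-box CACGTG, and because TCF and LEF factors bind CTTTGAT or CTTTGAA. The RefSeq table (build GRCm38.p6) held 28 starts for 25 of the 37 genes, and the 250 bases before each start were read on both strands. The E-box, whose reverse complement is itself, was found at 3 of the 28 starts, and 6.02% of all 32851 promoters of that length hold it. The TCF/LEF letters were found at 2 of the 28 starts, and 7.48% of all promoters hold them. A match is a description of these letters and not a bound site. The windows of 30 bases around the matches are shown 5′ to 3′ on the gene's strand, with the motif in capitals, as these are all the matches found.
Fzd9: cgctccgggacaCACGTGggcggccgagag
Wnt9a: ttcccaccgcgcCACGTGcccagccctccc
Rspo4: agccggcctgtgCACGTGcgaggggcgtgg
Wnt5b: agtaagtctctCTTTGATctgctccctgtc
Wnt11: gacgtgggcggATCAAAGcgacggtccgcg
The Fzd9 window lies at chr5:135251118-135251147 on the minus strand, with the motif starting 88 bases before the RefSeq start. GENCODE M21 places that window within the single Fzd9 exon, and the other 4 windows lie in no GENCODE exon. The Wnt9a window is chr11:59306690-59306719 on the plus strand, 228 bases before the start, and the Rspo4 window is chr2:151842807-151842836 on the plus strand, 108 bases before it. The Wnt5b window is chr6:119449439-119449468 on the minus strand, 71 bases before 1 of its 3 RefSeq starts. The Wnt11 window is chr7:98835050-98835079 on the plus strand, 51 bases before the start, and its capitals are the TCF/LEF letters of the opposite strand. Of the genes with an E-box match, Fzd9 was higher in scKO, Wnt9a was lower, and Rspo4 had no count in either library. The Wnt9a interval held 0 under scaling by total counts, and the part of the E-box in these ratios was not tested.

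Among the ligands, 5 of 19 genes were tested, and the summed Wnt counts did not differ beyond counting error. They came to 696 in flox and 647 in scKO, a log2 ratio of -0.05 (-0.21 to 0.10), and the summed level was 8.58 and 8.62 FPKM. By deposited FPKM Wnt4 gave the highest ligand level. It is known from kidney and female reproductive tract development. Wnt4 had 278 counts in flox and 281 in scKO, or 4.50 and 4.84 FPKM, and its log2 ratio of 0.07 (-0.18 to 0.31) held 0. In the flox library 68.7% of tested genes lay below Wnt4 in FPKM, and in scKO 69.4% did.

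Wnt9a, a ligand known from joint formation and blood stem cell development, came next by deposited level. It had 220 counts in flox and 170 in scKO, or 2.34 and 1.92 FPKM. The scKO library was the lower of the pair, by 1.25-fold, with a log2 ratio of -0.32 (-0.62 to -0.03). Its interval came close to 0 and held 0 under scaling by total counts, at -0.28 (-0.58 to 0.01). Wnt9a gave 31.6% of all Wnt counts in flox (Wilson 95% interval 28.3% to 35.2%) and 26.3% in scKO (23.0% to 29.8%), and these intervals overlap. The gene lies at chr11:59306928-59333552 on the plus strand, 16175 bases from Wnt3a, its neighbour on the opposite strand. Wnt3a had no count in either library.

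Wnt5b, a ligand of the branches that do not act through β-catenin, was the only tested member of the 37 genes with a change of at least 2-fold. It had 32 counts in flox and 15 in scKO, or 0.385 and 0.192 FPKM. The scKO value was 2.06-fold lower, with a log2 ratio of -1.02 (-2.03 to -0.12). The change rests on 47 counts, and other ways of treating low values brought the log2 ratio nearer to 0, to -0.85 with a prior count of 5 and to -0.73 on the scale of log2(FPKM + 0.1). Among all tested genes with summed counts from 20 to under 100, 6.07% were at least 2-fold lower. Wnt5b lies at chr6:119432531-119544347 on the minus strand. Within that span lies Fbxl14 on the opposite strand, with no shared exon base, at 124 and 122 counts.

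Wnt5a and Wnt11, also known for planar polarity and calcium signals, differed by less than counting error. Wnt5a had 92 counts in flox and 95 in scKO, or 0.498 and 0.547 FPKM, with a log2 ratio of 0.10 (-0.33 to 0.53). Wnt11 had 63 and 61 counts, or 0.648 and 0.667 FPKM, with a log2 ratio of 0.0046 (-0.53 to 0.54). The levels of these ligands were not separated from each other in either library. Wnt5a and Wnt5b were not separated in flox, where the log2 ratio of their levels was 0.371 (-0.224 to 0.999), but Wnt5a lay above Wnt5b in scKO, by 1.51 (0.72 to 2.40). These orders use the deposited lengths. With merged exon lengths Wnt5a would stand at 0.799 and 0.877 FPKM and Wnt5b at 0.819 and 0.408 FPKM.

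The other 14 Wnt genes were near or below what these depths can show. Wnt16, a ligand known in bone, had 3 counts in flox and 12 in scKO. With 15 counts in all it was not tested, and its log2 ratio would be 1.88 (0.16 to 4.52). Wnt10b, known for holding back fat cell formation, had 1 and 6 counts, with an interval of -0.41 to 8.16. Wnt6 had 5 counts in each library and Wnt9b had 1 in each, while Wnt2b had 1 and 0 and Wnt7b had 0 and 1. No count was found in either library for Wnt1, Wnt2, Wnt3, Wnt3a, Wnt7a, Wnt8a, Wnt8b and Wnt10a. The 3 counts that a value of 0 allows correspond to 0.204 CPM in flox and 0.217 CPM in scKO (counts scaled to a common library size), so expression of Wnt7a below that level was not detectable at this depth.

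The receptors were the class with the most counts, and 9 of the 10 Frizzled genes were tested. Their summed counts were 1934 in flox and 1880 in scKO, a log2 ratio of 0.01 (-0.08 to 0.10). The interval of the sum held 0, while single receptors differed: Fzd4 was lower in scKO and Fzd9 and Fzd1 were higher, and the other 6 tested receptors had intervals that held 0. The median log2 ratio of the 9 receptors was 0.21. Fzd4, Fzd7 and Fzd9 together gave 91.0% of the Frizzled counts in flox and 88.5% in scKO.

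Fzd9, a receptor known from bone formation and from the neuromuscular junction, showed the clearest difference of the 18 tested genes relative to its counting error. It had 191 counts in flox and 295 in scKO, or 5.66 and 9.29 FPKM. The scKO library was 1.60-fold higher, with a log2 ratio of 0.68 (0.41 to 0.95). Its share of the Frizzled counts was 9.88% in flox (Wilson interval 8.62% to 11.3%) and 15.7% in scKO (14.1% to 17.4%), and these intervals do not overlap. By level it lay above 73.6% of tested genes in flox and above 81.6% in scKO. The gene (ENSMUSG00000049551) is a single exon at chr5:135248938-135251230 on the minus strand, and it carries the E-box window printed above.

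Fzd4, known as the receptor of Norrin in blood vessels as well as of Wnts, had the most counts of all 37 genes. It had 885 counts in flox and 728 in scKO, or 16.3 and 14.3 FPKM. The scKO library was 1.17-fold lower, with a log2 ratio of -0.23 (-0.37 to -0.09). Its share of the Frizzled counts was 45.8% in flox (43.6% to 48.0%) and 38.7% in scKO (36.5% to 40.9%), again without overlap. Since shares of a fixed sum move against each other, the share of Fzd4 and that of Fzd9 are not independent. Of the endothelial markers 3 of 9 were higher in scKO and none was lower, and of the fibro-adipogenic markers 7 of 12 were lower and none was higher, and the part of either in the Fzd4 ratio was not tested. Fzd4 lies at chr7:89404355-89413134 on the plus strand and has 2 exons.

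Fzd7, the receptor through which Wnt7a acts on satellite cells, came second among the receptors by counts and did not differ beyond counting error. It had 684 counts in flox and 641 in scKO, or 10.2 FPKM in each, with a log2 ratio of -0.04 (-0.20 to 0.12). This interval is among the narrowest of the 18 tested genes and leaves room for a change of at most 0.20 on the log2 scale from counting error alone. Its share of the Frizzled counts was 35.4% in flox and 34.1% in scKO.

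**Figure D2:**
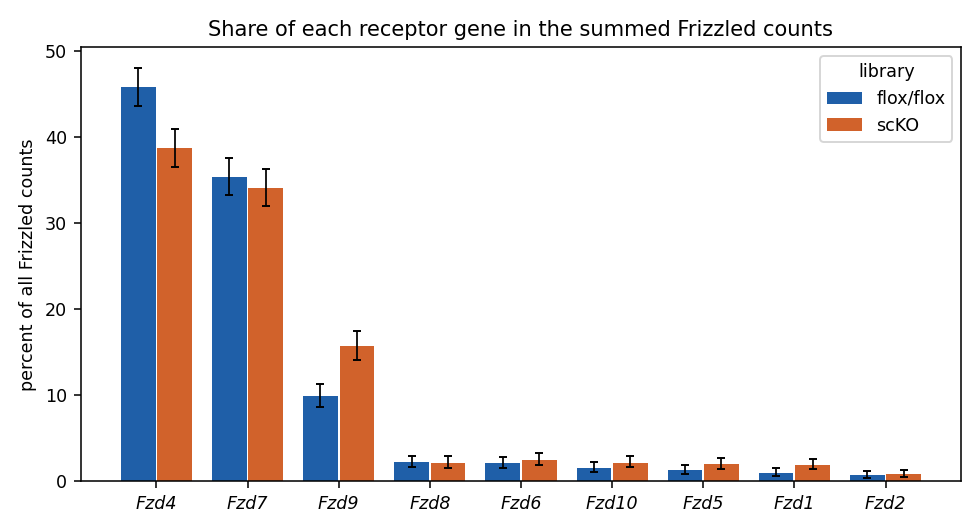
Share of each of the 9 tested receptor genes in the summed Frizzled counts of each library, in percent, with Wilson 95% intervals as bars (blue flox/flox, orange scKO). Fzd4 goes from 45.8% to 38.7% and Fzd9 from 9.88% to 15.7%, while Fzd7 stands at 35.4% and 34.1%.

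The other Frizzled genes had low counts. Fzd1, a receptor that can signal through β-catenin, had 19 counts in flox and 36 in scKO, or 0.307 and 0.620 FPKM. The scKO value was 1.96-fold the flox value, a log2 ratio of 0.95 (0.13 to 1.86), just under the 2-fold line. Under scaling by total counts the fold passed that line, while the log2 ratio was 0.99. The change rests on 55 counts, and the log2 ratio of Fzd1 was 0.82 with a prior count of 5. On the scale of log2(FPKM + 1) it was 0.31. Fzd1 is a single exon at chr5:4753839-4758035 on the minus strand. Fzd5, known from eye and gut development, had 25 and 38 counts (0.64, -0.11 to 1.44), and Fzd10 had 30 and 41 (0.49, -0.21 to 1.23). Both intervals held 0. Fzd6, a receptor of the planar polarity branch, had 41 and 46 counts (0.21, -0.42 to 0.86). Fzd8 had 43 and 40 counts (-0.05, -0.71 to 0.60) and Fzd2 had 14 and 15 (0.146, -1.001 to 1.312). For each of these 5 genes counting error alone leaves room for a log2 ratio of 0.60 or more in at least 1 direction. Fzd3, a planar polarity receptor of nerve fibres, had 2 counts in flox and none in scKO and was not tested.

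**Figure D3:**
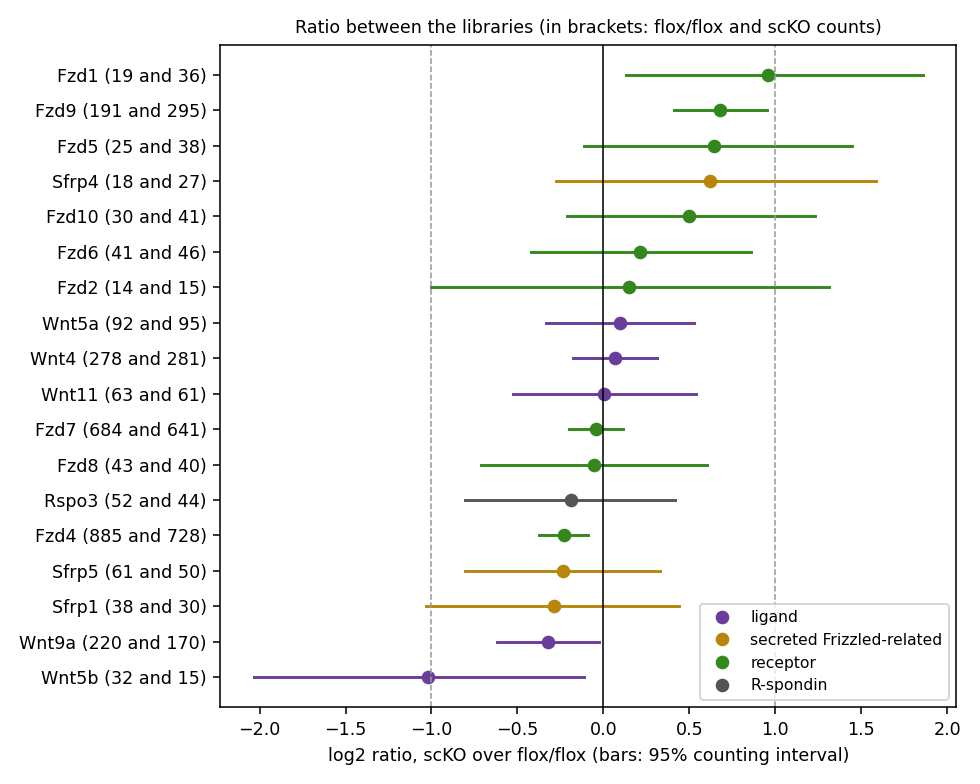
Log2 ratio of scKO over flox/flox for the 18 tested genes, with 95% counting intervals as bars and the counts of both libraries in brackets; dashed lines mark 2-fold. The bars of Fzd1 and Fzd9 lie above 0 and those of Fzd4, Wnt9a and Wnt5b below it, and only the point of Wnt5b is past a dashed line.

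By deposited FPKM the receptors fell into a high group and a low group. In flox the order was Fzd4, Fzd7 and Fzd9, each separated from the next beyond counting error, and Fzd9 was 2.70 (2.21 to 3.21) on the log2 scale above the next gene, Fzd8. In scKO Fzd7 at 10.2 FPKM and Fzd9 at 9.29 FPKM were not separated, with a log2 ratio of their levels of 0.14 (-0.06 to 0.34). Next to each other in the order, Fzd8, Fzd6 and Fzd10 were not separated in either library, with levels from 0.627 to 0.911 FPKM. Among the ligands Wnt4 lay above Wnt9a, and Wnt9a above Wnt11, in both libraries. Levels of different genes depend on the gene length that the depositors used. The length implied by FPKM and count was within 1% of the merged exons of GENCODE M21 for 8 of the 18 tested genes, shorter for 5 and longer for 5. For 12 of the 18 it was within 1% of the summed length of all distinct exons. That sum counts the bases of overlapping exons more than once, which lowers the FPKM. With merged exons Fzd4 would stand at 8.94 and 7.83 FPKM, below Fzd7, and Wnt9a at 4.49 and 3.69 FPKM, beside Wnt4 at 4.50 and 4.84. In all, 7 of the 18 levels would move by over 1.5 times (Fzd4, Fzd8, Wnt9a, Wnt5a, Wnt5b, Wnt11 and Sfrp4), so the order of levels holds for the deposited lengths only. The ratios between the libraries do not depend on length.

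Of the 4 Sfrp genes 3 were tested, and none differed beyond counting error. Their summed counts were 119 in flox and 111 in scKO, a log2 ratio of -0.05 (-0.44 to 0.34). Sfrp5, known as a Wnt inhibitor secreted by fat tissue, had 61 and 50 counts, or 2.18 and 1.90 FPKM, with a log2 ratio of -0.23 (-0.80 to 0.33). It gave the highest level of the class in both libraries. Sfrp1 had 38 and 30 counts (0.590 and 0.496 FPKM), with a log2 ratio of -0.29 (-1.03 to 0.44). Sfrp4, known from bone and phosphate balance, had 18 and 27 counts (0.696 and 1.11 FPKM), with a log2 ratio of 0.62 (-0.28 to 1.58). Sfrp4 and Sfrp1 were not separated by level in flox and were separated in scKO, by 1.16 (0.36 to 1.96) on the log2 scale. With merged exon lengths Sfrp4 would instead lie below Sfrp1 in both libraries, at 0.292 and 0.467 FPKM against 0.590 and 0.496. Sfrp2 had 2 and 4 counts and was not tested.

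Among the R-spondins, Rspo3 carried nearly all counts. It is known for its role in blood vessel development and had 52 counts in flox and 44 in scKO, or 1.47 and 1.33 FPKM. Its log2 ratio was -0.19 (-0.80 to 0.42), an interval that held 0. Rspo1 had 2 counts in flox and none in scKO, and Rspo2 and Rspo4 had none in either. At this depth Rspo3 was thus the single R-spondin with a level that could be compared.

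The rest of the pathway was described from 7 lists of genes by role, which hold 124 genes with a row in the table, 105 of them tested. Of these 105, 16 were higher and 18 were lower in scKO, 3 were at least 2-fold higher and none was at least 2-fold lower, and the median log2 ratio was -0.011. That is 15.2% higher and 17.1% lower, against 12.8% and 12.3% over all tested genes. At the 2-fold line it is 2.86% higher, against 1.49%, and 0% lower, against 1.91%, and the counts of each list below are to be read beside these shares. A gene may stand in more than 1 list. The lists were written with earlier results of these data known and are described by their counts only. Their calls were made under 1 scaling only, and those with intervals ending close to 0 depend on it.

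Of the 12 tested coreceptors and receptors outside the Frizzled family 2 were higher and none was lower, with a median log2 ratio of 0.17. Of the canonical coreceptors, Lrp6 was higher, at 952 counts in flox and 1107 in scKO (0.27, 0.14 to 0.40). Lrp5 had 306 and 270 counts (-0.13, -0.37 to 0.11), an interval that held 0. The largest ratios belonged to genes with few counts and held 0. Ror2, a receptor kinase for Wnt5a, had 6 and 15 counts (1.30, -0.07 to 3.03), and its relative Ror1 had 35 and 23 (-0.54, -1.38 to 0.25). Ptk7, a planar polarity receptor, had 15 and 9 counts (-0.66, -2.06 to 0.60), and Adgra2, a coreceptor for Wnt7 in blood vessels, had 42 and 58 (0.51, -0.08 to 1.13).

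The modulators outside the symbol rule had 10 of 22 genes tested, 1 higher and 1 lower, and 5 had no count. Dkk3, a divergent member of the Dickkopf family, was higher in scKO, at 62 and 88 counts (0.55, 0.07 to 1.05). Kremen1, a Dickkopf receptor, was lower, at 1162 and 880 (-0.35, -0.48 to -0.22). Trabd2b, a protease that inactivates Wnts, had 30 and 18 counts (-0.67, -1.62 to 0.20), and Znrf3, the target of R-spondins, had 43 and 56 (0.43, -0.17 to 1.04). Both of those intervals held 0.

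In the secretion list all 6 genes were tested. Tmed2, a p24 cargo receptor of early secretory traffic, had 239 counts in flox and 878 in scKO and was 3.81-fold higher (1.93, 1.72 to 2.14). Porcn, the enzyme that attaches the lipid to Wnts, was lower, at 95 and 65 counts (-0.49, -0.97 to -0.03). Wls, the carrier that takes Wnts to the surface, had 202 and 231 counts (0.24, -0.03 to 0.52), and Atp6ap2 had 183 and 160 (-0.14, -0.46 to 0.17). The 2 genes with intervals off 0, Tmed2 and Porcn, had ratios of opposite sign, and the intervals of Wls and Atp6ap2 held 0. What these ratios mean for Wnt secretion was not tested.

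The destruction complex and Dishevelled list had 23 of 23 genes tested, 2 higher and 6 lower, with a median log2 ratio of -0.09. Apc, the scaffold that holds β-catenin for degradation, was lower, at 671 and 381 counts (-0.76, -0.95 to -0.58). Dvl2, a Dishevelled adaptor below Frizzled, was lower too, at 98 and 60 (-0.65, -1.15 to -0.18), as were Dvl1, Gsk3b, Csnk1e and Tnks by smaller ratios, from -0.28 to -0.19. Csnk1g1, a membrane-bound casein kinase, was 2.37-fold higher, at 28 and 64 counts (1.23, 0.58 to 1.94), and Rnf146, a ubiquitin ligase for Axin, was higher by 0.26 (0.06 to 0.45). Apc2 had 14 and 19 counts (0.48, -0.58 to 1.60). The list thus holds inhibitors of the canonical branch (Apc, Gsk3b) and carriers of its signal (Dvl1, Dvl2) among its lower genes.

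Of 18 tested genes in the β-catenin and nuclear partner list 4 were higher and 3 were lower. Ctnnb1, which encodes β-catenin, was slightly lower, at 2405 and 2135 counts (-0.12, -0.21 to -0.04). Bcl9, a β-catenin coactivator, was lower, at 107 and 72 (-0.52, -0.97 to -0.08), whereas its paralogue Bcl9l was higher, at 321 and 387 (0.32, 0.10 to 0.54). Pygo1, which binds both of them, was higher, at 330 and 405 (0.35, 0.13 to 0.56), as were Tbl1xr1 and Tle4 by smaller ratios, and Aes was lower by a ratio of -0.05. Tcf7 had 12 and 9 counts (-0.35, -1.79 to 1.01).

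The list of common targets of β-catenin had 13 of 20 genes tested, 1 higher and 4 lower, with a median log2 ratio of -0.35. Axin2, the most widely used target, had 131 and 121 counts (-0.06, -0.43 to 0.30), an interval that held 0. Nkd2, a feedback inhibitor, was lower, at 55 and 30 counts (-0.81, -1.52 to -0.16), and so was Myc, at 101 and 69 (-0.50, -0.96 to -0.04). The other lower genes were Porcn, already given, and Tnfrsf19 at 176 and 131 (-0.37, -0.71 to -0.04). Bambi, a decoy receptor of the TGF-β family, was 2.76-fold higher, on 6 and 16 counts (1.39, 0.04 to 3.11), and Sox9 had 40 and 26 (-0.56, -1.34 to 0.18). Several of these genes answer to other pathways as well, and what set their ratios was not tested.

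The planar polarity and calcium list had 28 of 30 genes tested, 5 higher and 4 lower, with a median log2 ratio of 0.036. Its largest ratios were in enzymes of muscle calcium signalling that are not particular to Wnt. Camk2g, a calcium- and calmodulin-dependent kinase, was lower, at 2652 and 1456 counts (-0.81, -0.91 to -0.72), and Ppp3cb, a catalytic subunit of calcineurin, was higher, at 2400 and 3722 (0.68, 0.61 to 0.76). Celsr2, a core planar polarity cadherin, was lower, at 181 and 126 (-0.47, -0.81 to -0.14), and Daam2, which links Dishevelled to the cytoskeleton, had 81 and 58 (-0.43, -0.94 to 0.07).

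**Figure D4:**
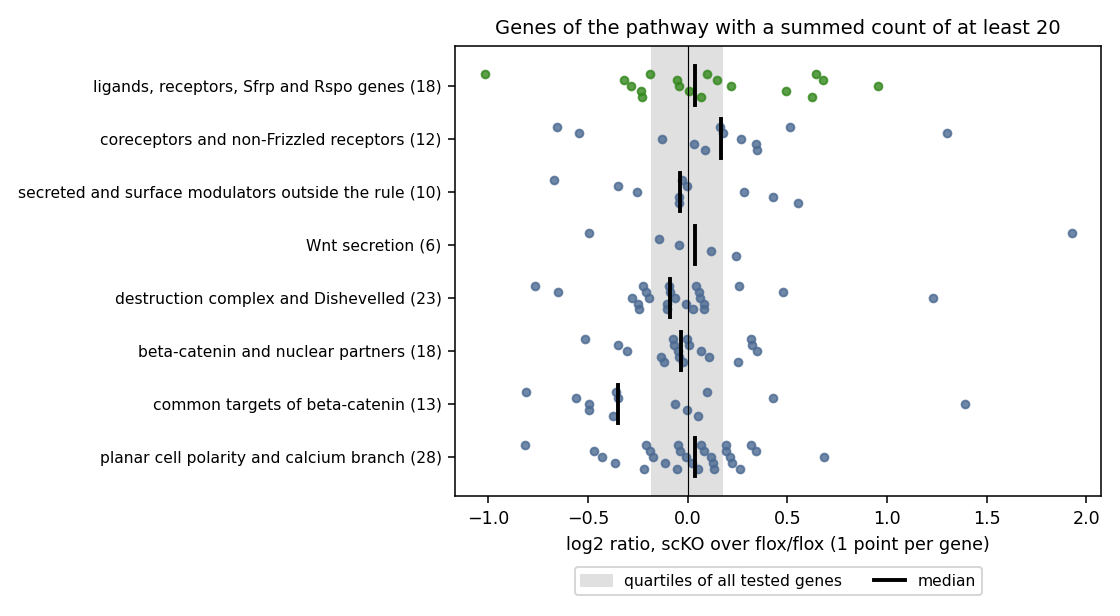
Log2 ratio of scKO over flox/flox for each tested gene, 1 point per gene, in the rule's genes (green) and in the 7 pathway lists (blue), with the number of genes in brackets, a black bar at each median and grey for the quartiles of all tested genes (-0.18 to 0.17). Medians lie between -0.35 for the β-catenin targets and 0.17 for the coreceptors, and Tmed2 in the secretion list is the point farthest to the right.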

How the data were processed

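The deposited table holds whole-number gene counts of 2 libraries, and the deposited FPKM are, per the file headers, 1 column for each. The submitters' processing notes name CASAVA, HISAT2 2.0.4, StringTie 1.3.0 and build GRCm38. How reads were assigned (annotation, counting options, strand) is not given in the sources used here, so reads of overlapping genes could not be told apart. For genes with at least 20 counts in flox and any in scKO, FPKM followed from counts and 1 length per gene to within 0.0198%.

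Symbols were found for 34267 of 34745 identifiers. Libraries were scaled with TMM (edgeR 4.0.16, R 4.3.3). Log2 ratios used a prior count of 0.5 and exact conditional binomial (Clopper-Pearson) 95% intervals, which cover counting error only and not PCR copies or animals. Python 3.11.15, numpy 2.4.6, scipy 1.17.1, pandas 2.3.3 and matplotlib 3.10.9 were used. DESeq2 1.42.0 size factors, total counts, other minimums, prior counts and FPKM were alternatives.

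The named genes were all members, Cipc, and up to 4 tested genes with the largest ratio from each pathway list. Other named genes (Lrp5, Lrp6, Tnks, Rnf146, Csnk1e, Dvl1, Gsk3b, Ctnnb1, Tbl1xr1, Tle4, Aes, Axin2, Tnfrsf19, Pax7, Itga7, Mkx, Myh1, Myh2, Mylpf, Tnni2, Ckm, Acta1 and Fbxl14) were chosen after their values were seen. Of the coreceptor list 1 gene is not reported here by name. The members and lists were chosen with earlier results of these data known. Positions and exons came from GENCODE M21, promoters from RefSeq.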

Additional observations from a re-analysis of the deposited data

How the results depend on the processing

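No paired analysis was possible because each group has 1 library. Another scaling moved all log2 ratios together by 0.038 (total counts), -0.0095 (DESeq2 size factors) or 0.010 (total counts without mitochondrially encoded and the 20 most abundant genes). The number of genes at least 2-fold higher was 1 in place of 0 with total counts, through Fzd1, whose ratio of scaled counts passed 2 while its log2 ratio with the prior count was 0.99. It was also 1 with a minimum of 10 summed counts and 1 with no minimum, both through Wnt16. The number at least 2-fold lower was 0 in place of 1 with a minimum of 50, since Wnt5b has 47 counts. The log2 ratio of Wnt5b was -0.98 with total counts, -0.85 with a prior count of 5, -0.73 with log2(FPKM + 0.1) and -0.22 with log2(FPKM + 1). With merged exon lengths the flox/flox level was 8.94 FPKM for Fzd4 and 4.49 FPKM for Wnt9a, each by the change of length alone; Fzd8, Wnt5a, Wnt5b, Wnt11 and Sfrp4 also moved by over 1.5 times. The log2 ratios of the 18 tested genes under 6 alternatives, 108 values in all, stayed within the main intervals. Of these genes Wnt11, at a ratio of 0.0046, changed sign with DESeq2 size factors, and the 5 with intervals off 0 kept their direction. All 6 alternatives reuse the same 2 libraries and differ only in scaling or added constants. Little movement was therefore possible, and it does not show whether the ratios would repeat in other animals. Among the 18 tested genes 1 interval came to hold 0 under another scaling, that of Wnt9a with total counts. The calls in the pathway and marker lists were not repeated under other scalings. Some of those intervals ended nearer to 0 than the shift of 0.038, among them those of Ctnnb1, Porcn, Tnks and Aes. Others that held 0 came as near to excluding it. With 1 library per group no library could be left out. Depth limits the 9 genes with 1 to 19 counts and the 10 with none.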

Other observations

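Of the 18 tested genes 6 consist of a single exon in GENCODE M21: Fzd1, Fzd2, Fzd7, Fzd8, Fzd9 and Fzd10. This grouping was chosen after the values were seen, so it is given without a test. The median log2 ratio of the 6 was 0.32, with 2 higher in scKO and none lower, and that of the other 12 was -0.09, with none higher and 3 lower. Over the 229 other tested protein-coding genes with a single exon the median was -0.044, with 20 higher and 41 lower. Fzd1, Fzd9 and Fzd10, all in this single-exon group, lie on chromosome 5, and each of the 3 had more counts in the scKO library. This too was noticed after the values were seen, and it is not independent of the exon grouping. By scaled counts 10 of the 18 tested genes had more in scKO, and the interval of Fzd10 (-0.21 to 1.23) held 0. No share over other genes of chromosome 5 is given, and a link to that chromosome was not tested.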
